A study of Mus musculus with 6 samples.

Results

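The dopaminergic periglomerular cells of the mouse olfactory bulb were examined as the 377 cells that the deposited annotation of the neurons calls n05-PGC-2. They were chosen by that cluster name alone, among 21746 neurons in 18 clusters, and the whole series holds 51426 annotated cells. Their UMI counts (unique molecular identifiers, each standing for 1 captured RNA molecule) came from the deposited raw count table, and the library of each cell came from the annotation. Th, which encodes the enzyme at the rate-limiting step of dopamine synthesis, is the marker that names the cluster. The cells carried 968134 UMIs in all.

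Olfactory bulbs of C57BL/6NJ mice, 14 weeks old, were dissociated and captured by droplet single-cell RNA sequencing in 6 libraries, 2 per condition. The conditions were control, naris occluded (olfactory deprivation by closing 1 naris, with the bulb of the closed side taken) and trained (odor discrimination learning), and the manipulations lasted 6 weeks. Each library pooled 3 mice, and by the study's account replicate 1 held males and replicate 2 females in every condition, so condition is balanced for sex and each group has 1 library of either sex. The labels give no manipulation for the control mice, and the study calls them naive, while 1 sentence of it also names the open side of the occluded mice as a control. Every mouse was wild type. Xist, the transcript of the inactive X chromosome, was at 0 CPM (counts of the gene per 1000000 UMIs of the summed cells) in the 3 male libraries of these cells and at 2003 to 2668 CPM in the 3 female libraries.

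Periglomerular cells are small inhibitory interneurons around the glomeruli, where axons of the olfactory sensory neurons end on mitral and tufted cells. The dopaminergic ones make dopamine from tyrosine by tyrosine hydroxylase (Th) and aromatic amino acid decarboxylase (Ddc), load it into vesicles with Slc18a2 and release GABA as well. Some of them are added in the adult from precursors that migrate into the bulb. The study says that this cluster has been shown to arise earlier in life, with minimal replacement by adult neurogenesis. It still places the cluster among its adult-born lineages. In the bulb, Th is known as a gene whose expression follows the activity of the olfactory input, and closing a naris is a classical way of lowering it.

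The stretch of sequence just before the transcription start of Th is shown because Th defines these cells, and that of Trh because Trh, the precursor of thyrotropin-releasing hormone, was found in the largest share of them among the leading genes. Both are from RefSeq, build GRCm38.p6, the release of mm10, and are read 5′ to 3′ on the minus strand. They cover the 250 bases before the start, chr7:142899996-142900245 for Th and chr6:92244651-92244900 for Trh. Capitals mark a full cyclic AMP response element (TGACGTCA) and an AP-1 site (TGANTCA), searched on both strands.
Th: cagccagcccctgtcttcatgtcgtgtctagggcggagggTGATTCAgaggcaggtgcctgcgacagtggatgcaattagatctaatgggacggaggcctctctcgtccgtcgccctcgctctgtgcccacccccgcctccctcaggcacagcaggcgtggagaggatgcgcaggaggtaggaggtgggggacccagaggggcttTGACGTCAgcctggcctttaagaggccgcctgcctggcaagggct
Trh: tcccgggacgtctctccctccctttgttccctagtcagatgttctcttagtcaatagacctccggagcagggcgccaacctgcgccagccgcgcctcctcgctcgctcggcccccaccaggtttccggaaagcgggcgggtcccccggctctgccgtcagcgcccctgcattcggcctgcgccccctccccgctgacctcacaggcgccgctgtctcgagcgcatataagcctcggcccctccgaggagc

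The cyclic AMP response element of Th lay at -45 to -38 from the start, and no match to either motif was in the Trh window. Among 32851 windows of the same length before RefSeq gene starts, 1.55% held TGACGTCA and 6.75% held TGANTCA. Of the 25 genes that led the cluster, 17 had a window, TGACGTCA was in those of Th and Pax6, and TGANTCA was in those of Th and Ddc. The 5-base part TGACG, which the full element contains, was in 8 of the 17 windows and in 17.8% of all windows. A motif of the Nr4a factors (AAAGGTCA) was in the Ddc window alone, and 1.34% of all windows held it. These matches describe the letters in the windows only.

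The libraries contributed 76 and 70 of the cells in control, 61 and 49 in naris occluded and 82 and 39 in trained. Cells held between 573 and 10091 UMIs with a median of 1931, the median was at rank 3 of the 18 clusters, and 31.0% of the cells had under 1000 UMIs. The sums per library ran from 118023 to 188676 UMIs, so a gene at 10 CPM rests on 1 or 2 UMIs a library, and counting error is the floor under every value below. The occluded replicate 2 stood apart in depth and quality, its cells holding 3026 UMIs at the median with 5.04% mitochondrial, where the other 5 libraries held 1303 to 2485 with 6.33% to 10.8%. Over all annotated cells the libraries held 11841160 to 17065083 UMIs. Of the 377 cells, 15 carried a barcode that also named an annotated cell of another library. None shared one with another cell of the cluster. The cell names of the 2 trained libraries start with each other's library name, and the annotation's own library column was followed.

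The leading genes of the cluster included those of dopamine synthesis, of 2 neuropeptides, of GABA synthesis and of a set of transcription factors. They are a description, since the clusters were made from the same cells' expression, and no test was run. The rule took genes with at least 50 CPM in these cells and a mean above each of the other 17 clusters in at least 5 of the 6 libraries. It found 48 genes, and the 25 with the largest ratio to the next cluster are named here.

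**Figure D1:**
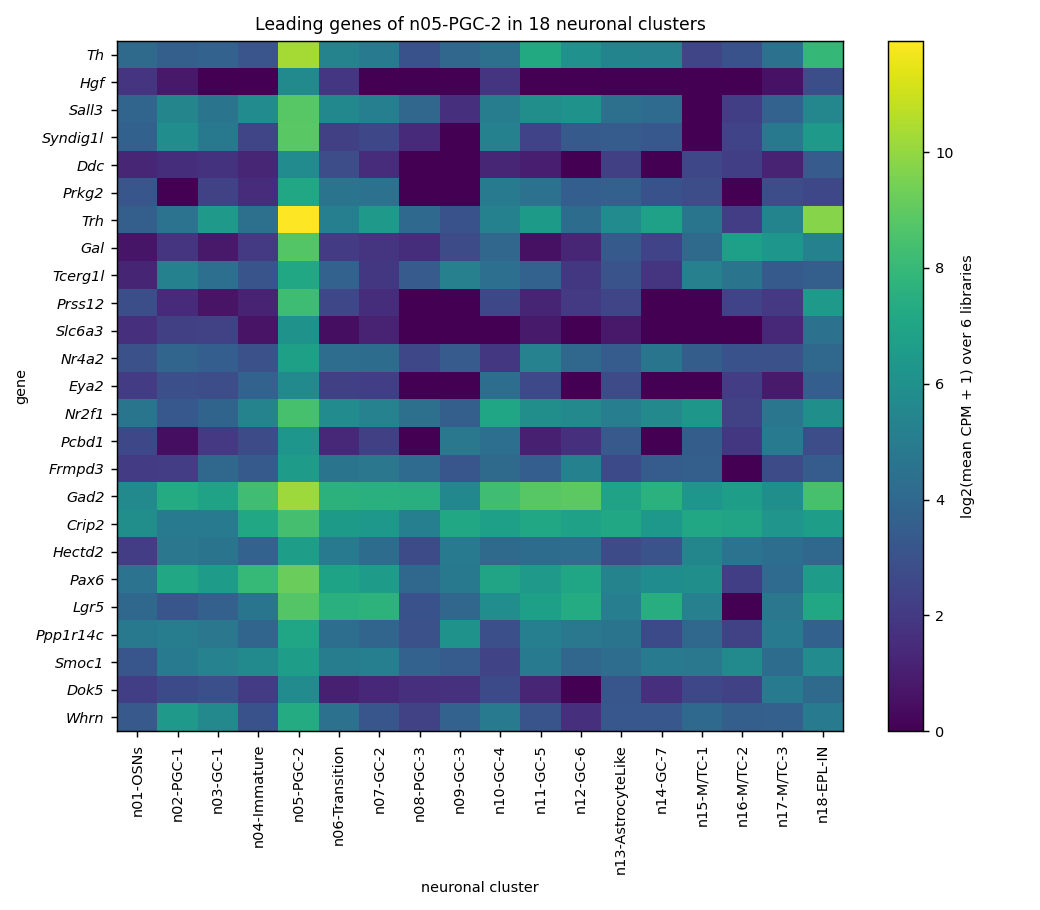
Mean level, as log2(CPM + 1) over the 6 libraries, of the 25 leading genes (rows) in each of the 18 neuronal clusters (columns). Brighter cells are higher levels, and the n05-PGC-2 column is the brightest in every row, with n18-EPL-IN as the next column for Th, Ddc and Trh.

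Th stood at 1443 and 1373 CPM in the control libraries, 1092 and 927 in the occluded and 1516 and 1313 in the trained. The next cluster, the external plexiform layer interneurons n18-EPL-IN, averaged 243 ± 247 CPM (SD, n = 6) on 44 UMIs, with libraries between 0 and 688, and the granule cells n11-GC-5 followed at 150.2 ± 21.7. At least 1 Th UMI was seen in 59.9% of the cells, against 1.30% of immature neurons (n04-Immature, median 1668 UMIs a cell), which should lack it. With every cell thinned to 500 UMIs the expected shares were 33.7% and 0.395%. The share with a UMI was 20.5% in n11-GC-5 (median 2110 UMIs) and 5.91% after thinning. Of all 2943 Th UMIs in the table, 1254 (42.6%) were in the 377 cells. Within the cluster Th was uneven, with 151 cells at 0 UMIs, 58 at 1 and 49 at 10 or more.

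Other genes of dopamine synthesis were mostly highest in the cluster too. Ddc averaged 53.5 ± 14.5 CPM (n = 6) and n18-EPL-IN, the next, 9.72 ± 23.8. Pcbd1, which recycles the tetrahydrobiopterin cofactor of tyrosine hydroxylase, averaged 75.5 ± 30.5 CPM, against 29.6 ± 7.88 in the mitral and tufted cells n17-M/TC-3. Gch1, which starts the making of that cofactor, averaged 23.1 ± 8.21 CPM on 23 UMIs and was the highest of 18. Pts, the next enzyme of that route, was also highest at 65.1 ± 31.9 CPM, within the spread of n08-PGC-3 at 46.1 ± 53.4. Of the 6 genes of the list of dopamine synthesis that reached 20 CPM, 5 were highest in these cells. Over all 6802 genes at that level, 5.37% were. The exception was Qdpr, another cofactor recycling enzyme, at rank 5. Spr, the last enzyme of cofactor synthesis, was under 20 CPM, at 16.4 ± 9.83, and ranked 14 with n08-PGC-3 highest at 60.4 ± 29.3.

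Of 6 genes for storage, uptake and breakdown of dopamine at 20 CPM or more, 1 was highest in these cells, the transporter Slc6a3. Slc6a3, which takes dopamine back up, averaged 68.6 ± 36.3 CPM with 21.0 ± 24.8 in n18-EPL-IN, and its libraries ranged from 26.5 to 124. Slc18a2, the vesicular monoamine transporter, averaged 54.2 ± 17.7 CPM, which overlapped 59.5 ± 24.4 in n18-EPL-IN, and its median over the other 11 adult-born clusters was 1.96. Maoa, which breaks dopamine down, averaged 20.9 ± 15.8 CPM and ranked 11 of 18. Of the 5 receptor genes listed, Drd1, Drd4 and Drd5 had 0 UMIs, which allows up to 3.10 CPM by counting alone, and the other two were not analysed here.

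Among the leading genes, Trh was found in the most cells, and stood at 4352 and 3736 CPM in control, 4328 and 3952 in occluded and 3625 and 3296 in trained. A Trh UMI was present in 86.2% of the cells and in 2.84% of n04-Immature cells (69.3% and 1.00% after thinning). The next cluster was again n18-EPL-IN, at 874 ± 833 CPM (n = 6) with libraries from 111 to 2169. Both Th and Trh were seen in 201 of the 377 cells, Trh alone in 124, Th alone in 25 and neither in 27. Gal, the precursor of galanin, averaged 422 ± 159 CPM with 104 ± 87.8 in the mitral and tufted cells n16-M/TC-2. It was seen in 21.5% of the cells and in 0.307% of n04-Immature cells (11.6% and 0.131% after thinning). Of 10 neuropeptide precursors at 20 CPM or more, Trh and Gal were highest in these cells. Pam, which amidates peptides such as the hormone that Trh encodes, averaged 334 ± 72.8 CPM and was highest of the 12 adult-born clusters and at rank 3 of 18.

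The cells carried the genes of a GABA neuron. Gad2, the glutamate decarboxylase of nerve endings, averaged 1155 ± 135 CPM and led all clusters, ahead of the granule cells n12-GC-6 at 482 ± 69.2. Gad1, the other decarboxylase, averaged 1367 ± 182 CPM and was at rank 4, with n12-GC-6 at 2344 ± 263. Abat, which degrades GABA, led at 365 ± 61.4 CPM against 224 ± 33.7 in n02-PGC-1.

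**Figure D2:**
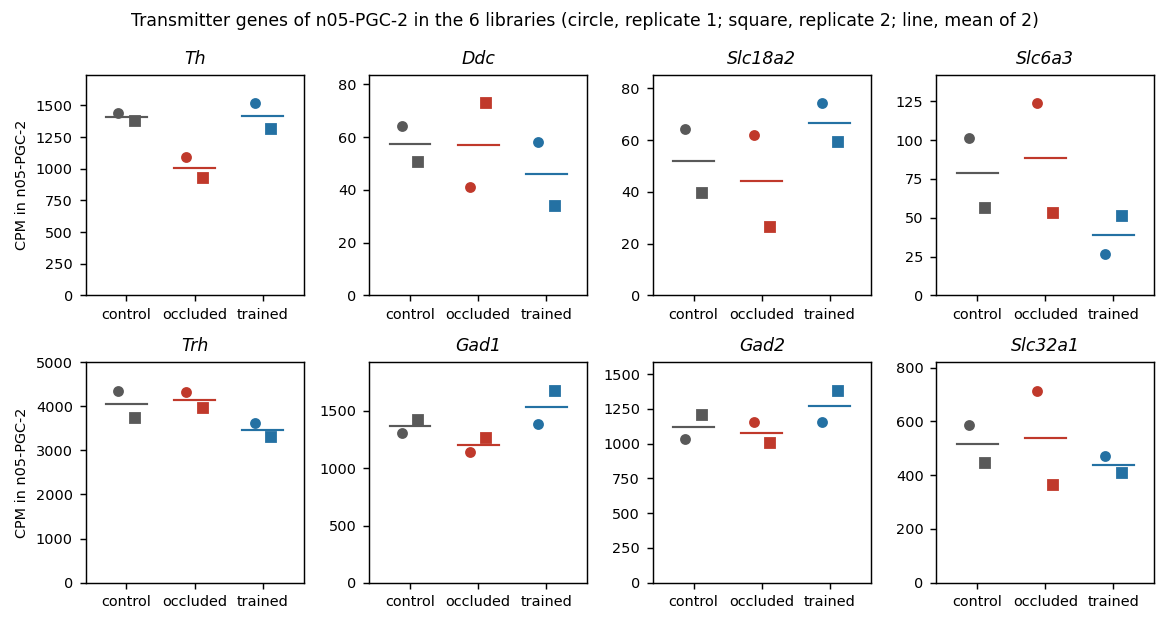
Level in CPM of Th, Ddc, Slc18a2, Slc6a3, Trh, Gad1, Gad2 and Slc32a1 in the n05-PGC-2 cells, 1 panel a gene with its own axis from 0. Each point is 1 of the 6 libraries, grouped by condition, and for Th the occluded libraries at 1092 and 927 CPM sit below the other 4.

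Among transcription factors tied to the dopaminergic fate of bulb interneurons, Sall3 stood out most, at 453 ± 66.1 CPM against 67.7 ± 15.9 in n12-GC-6. Pax6 averaged 585 ± 127 CPM with n04-Immature next at 252 ± 19.9, and Nr2f1 (COUP-TF1) 345 ± 102 with 131 ± 46.9 in n10-GC-4. Nr4a2 (Nurr1) averaged 110 ± 48.1 CPM and 38.5 ± 6.93 in n11-GC-5, and Etv1 (ER81) 485 ± 81.8, within 1 SD of 448 ± 45.7 in n02-PGC-1. These 5 were highest in the cluster, of 16 on the list at 20 CPM or more. The others were not. Meis2 averaged 1188 ± 98.4 CPM at rank 9, Sp8 342 ± 93.3 at rank 6 with n02-PGC-1 at 829 ± 80.4, and Tshz1 43.2 ± 21.5 was the lowest of all 18 clusters.

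The remaining leading genes included Syndig1l at 462 ± 80.5 CPM (85.7 ± 42.1 in n18-EPL-IN) and Prkg2, a cyclic GMP-dependent kinase, at 142 ± 41.3. Prss12, the protease neurotrypsin, averaged 293 ± 50.8 CPM, and Lgr5, the receptor of R-spondins known from stem cells, 430 ± 29.3 CPM with 211 ± 28.1 in n07-GC-2. Hgf, the ligand of the Met receptor, averaged 51.5 ± 15.7 CPM with 6.34 ± 15.5 in n18-EPL-IN. Lgr5 stayed between 394 and 476 CPM over the 6 libraries. Signalling genes that were highest of 18 but outside the leading 25 were found on the lists of channels and receptors. They were the serotonin receptors Htr3a (89.3 ± 29.6 CPM) and Htr7 (29.7 ± 8.27), the calcium channel subunits Cacnb2 (262 ± 68.2) and Cacna2d2 (215 ± 67.2) and the extrasynaptic GABA receptor subunit Gabrd (167 ± 43.9). Cacna2d2 and Gabrd lay within 1 SD of the next cluster. At 20 CPM or more, 2 of 4 listed monoamine and acetylcholine receptor genes and 2 of 21 sodium and calcium channel genes were highest. The same held for 1 of 11 GABA-A receptor genes and 0 of 13 glutamate receptor genes. Among all 6802 genes at that level, 5.37% were highest. None of 23 potassium channel genes at 20 CPM was highest, with Kcnc2 (206 ± 25.3 CPM) and Kcnq3 (89.6 ± 40.0) at rank 2. Mt1, a metallothionein, was also highest, at 3492 ± 660 CPM with 2490 ± 195 in n13-AstrocyteLike.

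Low genes were sought by another rule, on means. Of 657 genes with at least 100 CPM in each of the other 11 adult-born clusters, 14 were below all of them here. Il1rapl1, a synaptic adhesion gene, averaged 20.1 ± 8.64 CPM and the lowest other, n08-PGC-3, 120 ± 54.7. Bcl11a averaged 40.3 ± 9.89 CPM, with n14-GC-7 at 104 ± 78.2. For Il1rapl1 the highest cluster was n06-Transition at 769 ± 53.5. None of 18 genes of immature neurons at 20 CPM was highest here, where 5.37% of all genes at that level were. Sox11 was at 33.0 ± 15.1 CPM against 2085 ± 98.4 in n04-Immature. Gap43, a growth cone gene, was at rank 2 with 305 ± 97.2 CPM.

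Over 10677 genes, the mean log2 profile of the cells was most like that of n11-GC-5 (Pearson r = 0.884), n03-GC-1 (0.882) and n02-PGC-1 (0.880), and less like the other named periglomerular cluster n08-PGC-3 (0.838). These are correlations across genes of clusters that share libraries and differ in depth, and genes are not independent replicates. Markers of other neuron classes differed in level. The markers of external plexiform layer interneurons, Calb1 and the mitral and tufted markers summed to at most 6.87, 47.7 and 84.4 CPM in any library. Calb2, the marker of another interneuron type, ran from 58.3 to 426 CPM, the immature neuron markers summed to 610 to 986 and the granule cell markers to 2820 to 3558. Markers of cells outside these classes were present in every library, in ranges of 318 to 1181 CPM for olfactory sensory neurons, 458 to 928 for oligodendrocytes and 569 to 3084 for olfactory ensheathing cells.

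The 377 cells came from more than 1 cluster of the authors' annotation of the whole bulb, and levels differed widely between these sources. The whole-bulb cluster N16 gave 166 cells and N12 gave 167, with 44 cells from 6 others. N16 was almost wholly these cells, 98.8% of its 168, while they were 16.5% of the 1013 cells of N12, which also gave 247 cells to n08-PGC-3, 193 to n10-GC-4, 180 to n09-GC-3 and 142 to n18-EPL-IN. The N16 cells had a median of 4020 UMIs and 4.95% mitochondrial UMIs, the N12 cells 992 and 12.9%. N16 cells held 71.5% of all UMIs of the cluster and N12 cells 24.0%, so counting error is larger in the N12 values than in those of the whole cluster. As the sources were clustered on expression too, what follows is given without a test. Of 2125 genes compared, 373 were higher in N16 and 162 lower in all 6 libraries.

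Th was 1617 ± 279 CPM in the N16 cells and 413 ± 92.6 in the N12 cells, higher in 6 of 6 libraries. N16 libraries ran from 1104 to 1843 CPM and N12 libraries from 293 to 538, with no overlap. Trh was the other way round, at 3296 ± 302 and 5935 ± 517 CPM, lower in N16 in 6 of 6 libraries. The shares of cells with a Th UMI were 92.8% and 34.1%, and 52.4% and 18.9% after thinning to 500 UMIs, so the gap was there at equal depth. For Trh the thinned shares were 68.3% and 78.2%.

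The genes of GABA transmission split as well. Gad1 (1591 ± 120 and 910 ± 390 CPM) and Gad2 (1392 ± 196 and 670 ± 290) were higher in the N16 cells in 6 of 6 libraries. Both vesicular transporters were lower in N16 in 6 of 6, Slc32a1 for GABA at 407 ± 51.4 and 788 ± 272 CPM and Slc18a2 for monoamines at 42.1 ± 20.4 and 106 ± 31.1. Slc18a2 rested on 29 UMIs in N16 and 24 in N12 over all 6 libraries. Syndig1l, Pcbd1 and Pax6 were higher in N16 in all 6, while Ddc, Prss12, Hgf and Ppp1r14c were higher in 2 to 4 of them.

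**Figure D3:**
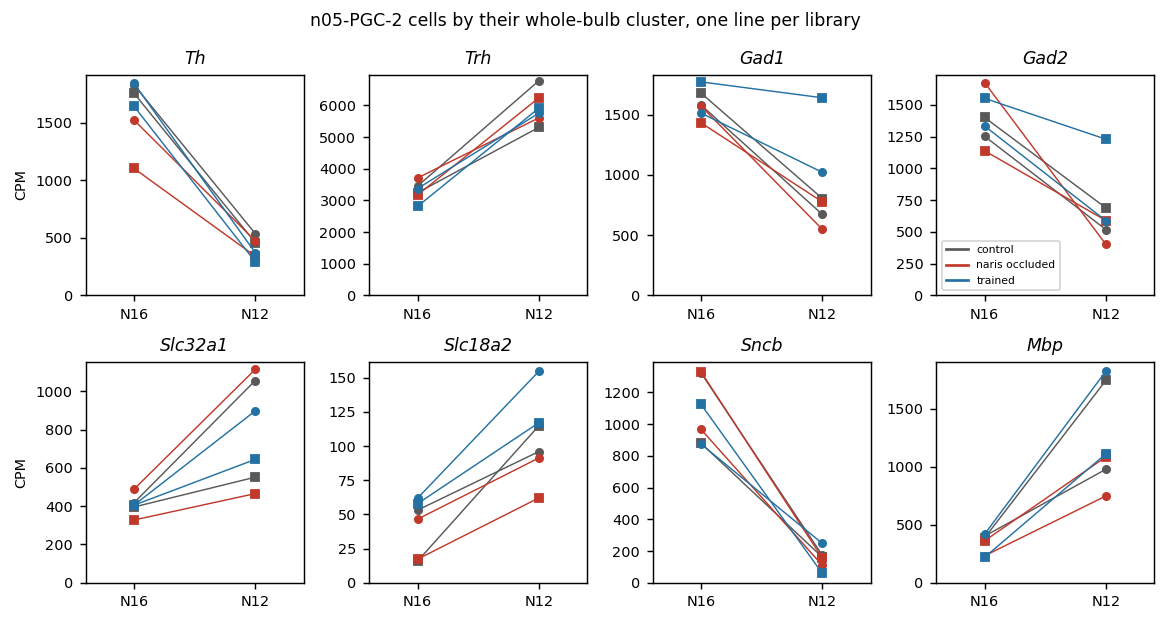
Level in CPM of Th, Trh, Gad1, Gad2, Slc32a1, Slc18a2, Sncb and Mbp in the n05-PGC-2 cells that the whole-bulb annotation puts in N16 and in N12, with 1 line a library. All 6 lines fall from N16 to N12 for Th, Gad1, Gad2 and Sncb, and all 6 rise for Trh, Slc32a1, Slc18a2 and Mbp.

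The largest ratios in favour of N16 were those of Sncb, the presynaptic beta-synuclein, at 1082 ± 209 against 151 ± 63.5 CPM, and of Bnip3, a mitochondrial protein gene, at 147 ± 53.7 against 24.4 ± 27.8. In favour of N12 the largest was that of Sox11, a gene of immature neurons, at 11.6 ± 3.64 against 113 ± 90.8, on 8 and 21 UMIs. The myelin gene Mbp, of oligodendrocytes, was the fifth by ratio, with 337 ± 88.2 against 1250 ± 435. Several marker lists of other cells moved with the split. The oligodendrocyte list summed to 401 ± 97.2 CPM in N16 and 1494 ± 534 in N12, that of the olfactory sensory neurons to 577 ± 205 and 1593 ± 726, and the mitochondrial genes to 50350 ± 4972 and 117894 ± 24903, each lower in N16 in 6 of 6. The astrocyte markers (262 ± 126 and 519 ± 168) and granule cell markers (2995 ± 260 and 3762 ± 390) were also lower in all 6. Stress genes went the other way, at 9204 ± 1032 and 5624 ± 1149, higher in N16 in 6 of 6. Microglial markers were higher in N16 in 4 libraries and endothelial markers in 3. The part of these lists in the differences above was not tested. The mean of Th in the N12 cells alone was above that of every other cluster, by 0.76 on the log2 scale, but in control replicate 1 n18-EPL-IN, at 688 CPM, was above their 538.

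A split of the cells by whether a Th UMI remained after thinning gave little more. It set 124 cells against 253, 69.4% and 31.6% of which were N16 cells. Of 2299 genes, 71 were higher and 67 lower in all 6 libraries, and the 10 with the largest ratios rested on 19 UMIs or fewer, so no difference was read from them. In the thinned counts Trh was at 4054 CPM in cells with Th and 5483 in those without, on 259 and 686 UMIs. It was higher with Th in 2 of 6 libraries.

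Sensory input was the variable of the study, so the number of the cells was compared first. They made up 2.37% (95% Wilson interval 1.90 to 2.96) and 3.14% (2.49 to 3.95) of adult-born neurons in the control libraries, 2.61% (2.04 to 3.34) and 1.67% (1.27 to 2.21) in the occluded and 2.46% (1.98 to 3.04) and 1.72% (1.26 to 2.34) in the trained. The intervals cover counting error only. Groups overlapped. With edgeR's quasi-likelihood test on the 12 adult-born clusters, occluded against control gave a log2 fold change of -0.36 (SE 0.39, Benjamini-Hochberg adjusted p = 0.573), where 8.33% of the clusters were called. Trained against control gave -0.38 (SE 0.39, adjusted p = 0.807 by the same edgeR test, 0% called) and trained against occluded -0.01 (SE 0.39, adjusted p = 0.976 by edgeR, 25% called). An exact two-sided permutation test on the shares gave p = 0.667, 0.667 and 1, and with 2 against 2 libraries it cannot go below 0.33. The share of N16 cells was 29.5% in occluded replicate 1 and 63.3% in occluded replicate 2, and 41.0% to 47.6% in the other 4. A change in the number of cells of a kind and in the RNA of each cell cannot be told apart from captured cells alone.

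Gene by gene, 3613 genes passed the filter on low counts and 1 was called in the 3 comparisons. Occluded against control called 0 genes at an adjusted p under 0.05 (edgeR quasi-likelihood test, Benjamini-Hochberg, 0% called, 123 at an unadjusted p under 0.05, and 0 with DESeq2). Trained against control called 0 (0%, 121 unadjusted, 0 with DESeq2). Trained against occluded called 1, which is 0.0277% of those tested (183 unadjusted, 0 with DESeq2). DESeq2 was run on 14319 genes, without the filter on low counts. It had 23, 17 and 36 genes at an unadjusted p under 0.05 in the 3 comparisons. On simulated counts for occluded against control, the edgeR test recovered 34% of 2-fold changes and 82% of 4-fold changes among 100 genes of each, with 5 false calls in all, so changes of 2-fold were mostly out of reach. All these genes were changed at once, which eases the adjustment of p. Where few genes change, a smaller part of them would be recovered. The 3 comparisons share libraries, and nothing is read from their likeness. Replicates are pools of separate mice, 1 pool for each sex.

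The called gene was E530001K10Rik. It was at 123 and 113 CPM in control, 41.2 and 6.62 in occluded and 164 and 186 in trained. Both occluded libraries were below the other 4, the lower one on 1 UMI, and the trained were above the control. Trained exceeded occluded by 2.84 on the log2 scale (SE 0.52, edgeR adjusted p = 0.0113), and occluded against control was -2.29 (SE 0.54, edgeR adjusted p = 0.175). In n02-PGC-1 the gene was at 63.2 and 53.1, 12.2 and 17.7, and 61.7 and 137 CPM in the same order, and trained against occluded was 2.69 (edgeR adjusted p = 0.0031). The difference between the clusters was 0.14 (SE 0.94, edgeR adjusted p = 1). In n08-PGC-3 it was at 110 and 76.9, 89.3 and 52.4, and 188 and 92.1 CPM, where occluded and control overlapped, and n05-PGC-2 differed from it by 1.71 (SE 0.82, unadjusted p = 0.0419, adjusted p = 1 in edgeR). In the cells of N16 alone it was at 144 and 158, 58.2 and 8.62, and 213 and 197 CPM (2.78, SE 0.52, edgeR adjusted p = 0.00535). The call was lost with DESeq2, with a stricter filter (edgeR adjusted p = 0.287), with only the 4 libraries of the comparison (0.113) and without occluded replicate 2 (2.03, adjusted p = 0.0596). Occluded against control passed without trained replicate 1 (-2.31, edgeR adjusted p = 0.0309), without trained replicate 2 (-2.31, 0.0380) and without occluded replicate 1 (-4.03, 0.00187).

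Th was lower in both occluded libraries than in the other 4. The log2 fold change of occluded against control was -0.49 (SE 0.22, 95% interval -0.94 to -0.04), with an unadjusted p of 0.0342 in edgeR and an adjusted p of 0.998, so it did not pass the test. Of all genes, 13.2% had both occluded libraries below both controls. Calb2 was higher in both occluded libraries over the same cells, at 426 and 278 CPM against 118 and 191 in control (1.18, SE 0.37, unadjusted p = 0.00309, adjusted p = 0.998 in edgeR). So were 15.3% of all genes, and trained replicate 2, at 305 CPM, was above occluded replicate 2. Both occluded libraries were also above both controls in n11-GC-5 (1586 and 1309 against 1081 and 1095 CPM), n02-PGC-1 and n04-Immature. They were not in n08-PGC-3, n18-EPL-IN or n01-OSNs. Within n05-PGC-2, neither the N16 nor the N12 cells alone held higher Calb2 in both occluded libraries. In the N16 cells Calb2 was at 663 and 77.6 CPM in occluded and 30.4 and 182 in control. In the N12 cells both occluded libraries were lower, at 91.3 and 93.1 against 326 and 161. Occluded replicate 2 as a whole was above both of its sources, so its value was raised by the 2 cells from other whole-bulb clusters. The part of Calb2 in the Th values was not tested. For Th, trained against control was -0.00 (interval -0.45 to 0.44). Trained against occluded was 0.49 (interval 0.03 to 0.94, edgeR adjusted p = 0.952), where 16.2% of genes had both trained libraries above. In n18-EPL-IN Th was at 688 and 343 CPM in control, 73.7 and 0 in occluded and 178 and 175 in trained, on 23 UMIs or fewer a library. In n11-GC-5 it was at 146 and 149, 160 and 160, and 175 and 111 CPM, with both occluded libraries above both controls.

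Because the N16 cells hold most of the Th, the values were also set out within the sources. In the N16 cells Th was at 1830 and 1757 CPM in control, 1524 and 1104 in occluded and 1843 and 1644 in trained, and occluded against control was -0.48 (SE 0.17, unadjusted p = 0.00888 and adjusted p = 0.890 in edgeR). A Th UMI was in 97.0% and 96.6% of the control N16 cells, 88.9% and 77.4% of the occluded and 97.4% and 100% of the trained. After thinning these were 57.5% and 54.8%, 47.8% and 38.7%, and 57.0% and 57.8%. Within N16 the occluded libraries were below the other 4 in each of these. The shares rest on few cells, with a Th UMI in 16 of 18 and 24 of 31 occluded cells. These were 32 of 33 and 28 of 29 in control and 38 of 39 and 16 of 16 in trained. The level and the shares read the same Th counts, in a set of cells taken after the split was seen. How often other genes separated so in the N16 cells was not counted. Over all n05-PGC-2 cells the groups overlapped, with a Th UMI in 65.8% and 55.7% of the control cells, 45.9% and 67.3% of the occluded and 63.4% and 61.5% of the trained. After thinning these were 37.7% and 32.8%, 24.0% and 33.0%, and 37.5% and 35.5%. In the N12 cells Th was at 538 and 460 CPM in control, 475 and 341 in occluded and 371 and 293 in trained, where the occluded overlapped both other groups, and the N12 share of cells with a Th UMI was highest in occluded replicate 2, at 50%.

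**Figure D4:**
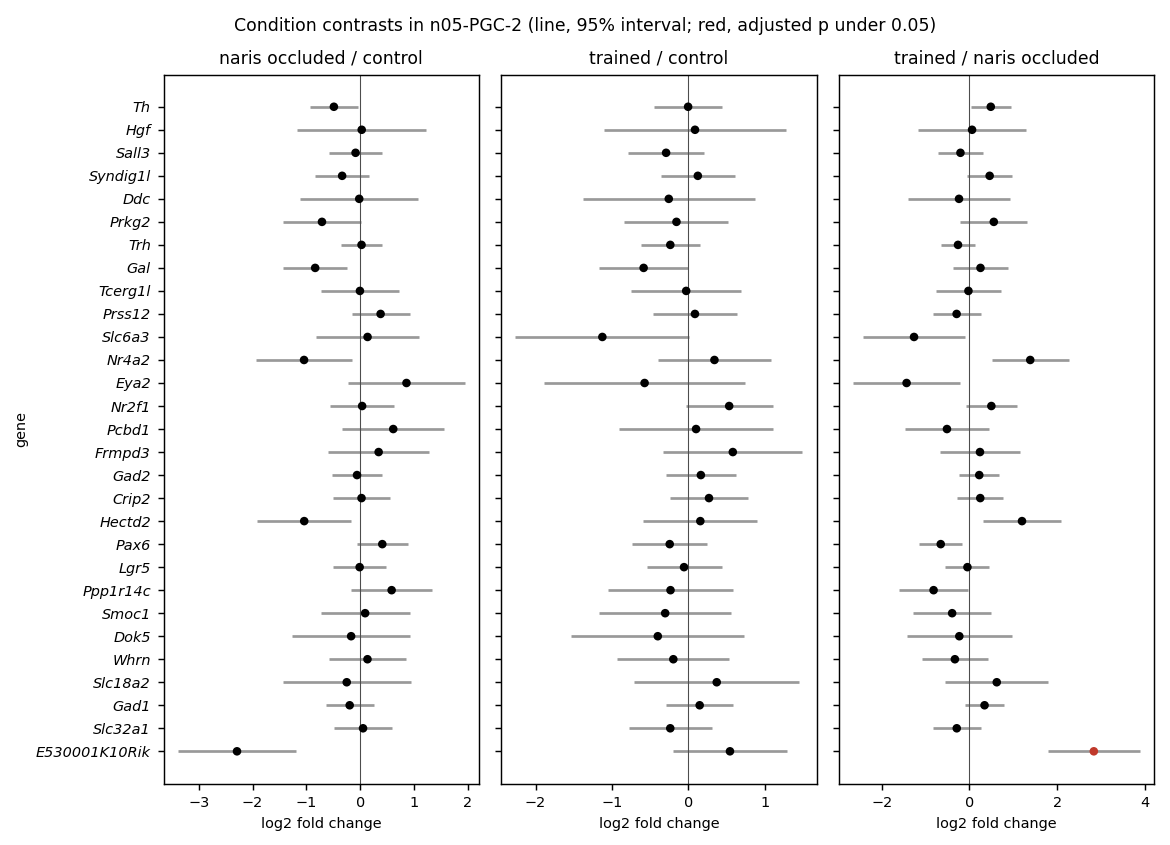
Log2 fold change with its 95% interval from edgeR's quasi-likelihood fit for 29 genes of the n05-PGC-2 cells, in 1 panel for each of the 3 comparisons of condition. Red marks an adjusted p under 0.05, which E530001K10Rik has in trained against naris occluded, and the intervals of Th end just short of 0 in both comparisons with the occluded libraries.

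The other genes of the transmitter phenotype did not pass either. Trh overlapped between occluded and control (0.03, interval -0.36 to 0.41) and both trained libraries were below the other 4 (trained against control -0.24, SE 0.19, edgeR adjusted p = 0.999). Gad1 was -0.20 (SE 0.22) and Gad2 -0.06 (SE 0.23) in occluded against control, and Ddc -0.02 with an interval of -1.11 to 1.08. Slc6a3 was at 102 and 56.3, 124 and 53.0, and 26.5 and 50.8 CPM, where both trained libraries were lowest (trained against control -1.13, SE 0.56). Of the 5 genes of dopamine synthesis that could be tested, 0 were called in any comparison and 1 had both occluded libraries below both controls, namely Th. Among all 3613 genes tested, 13.2% had both occluded libraries below both controls. For Gal the values were 561 and 557 CPM in control, 398 and 232 in occluded and 233 and 551 in trained. The controls were above both occluded libraries, while trained replicate 2 was nearly level with them. Occluded against control was -0.84 (SE 0.29, unadjusted p = 0.00651, adjusted p = 0.998 in edgeR). Without occluded replicate 1 it was -1.30 with an adjusted p of 0.00236 in edgeR, and without occluded replicate 2 it was -0.50 and did not pass.

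Genes that follow neuronal activity were measured thinly, with 9 of 34 listed tested and 0 called in each comparison. Nr4a2, both an activity gene and a factor of the dopaminergic lineage, was at 90.9 and 146 CPM in control, 61.8 and 53.0 in occluded and 138 and 169 in trained. Its groups did not overlap between occluded and either other condition. Among all genes tested, 13.2% had both occluded libraries below both controls and 16.2% below both trained. For Nr4a2, trained against occluded was 1.39 (SE 0.43, unadjusted p = 0.00268, adjusted p = 0.903 in edgeR) and occluded against control -1.04 (SE 0.44). Pax6, another fate factor, was highest in occluded, at 708 and 768 CPM. It was at 567 and 535 in control and 493 and 441 in trained (trained against occluded -0.65, edgeR adjusted p = 0.952). Of the 13 fate factors tested, 2 had both occluded libraries above both controls and 1 below. Fos, the prototype early gene, was at 53.5 and 73.1, 20.6 and 33.1, and 58.3 and 254 CPM (trained against occluded 2.36, SE 0.61, edgeR adjusted p = 0.529), with trained replicate 2 far above the other 5 libraries. Jund was at 176 and 197 CPM in control, 206 and 444 in occluded and 196 and 254 in trained, and occluded replicate 2 stood apart (occluded against control 0.79, SE 0.31, edgeR adjusted p = 0.998).

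The lowest adjusted p in occluded against control belonged to Kank3 and Gpcpd1, both 0.124 in edgeR, and these were chosen after their values were seen. Kank3 was at 187 and 191 CPM in control, 48.1 and 59.6 in occluded and 186 and 119 in trained (occluded against control -1.81, SE 0.40). In the granule cells n11-GC-5, where Kank3 was higher, it ran from 334 to 405 CPM over the 6 libraries with no separation of the occluded. Gpcpd1, a glycerophosphocholine phosphodiesterase, was at 139 and 78.8, 13.7 and 19.9, and 95.4 and 84.7 CPM (-2.65, SE 0.59). Vgf, a secreted peptide precursor induced by activity, was at 134 and 146, 55.0 and 39.7, and 117 and 67.8 CPM (-1.56, SE 0.45, edgeR adjusted p = 0.842). It was also lower in both occluded libraries than in both controls in n08-PGC-3 (63.8 and 0 against 220 and 264 CPM), n02-PGC-1 (6.08 and 0 against 18.3 and 22.4) and n18-EPL-IN (700 and 562 against 1795 and 1827). In n05-PGC-2 the occluded libraries were below the other 4 for all of Kank3, Gpcpd1 and Vgf.

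**Figure D5:**
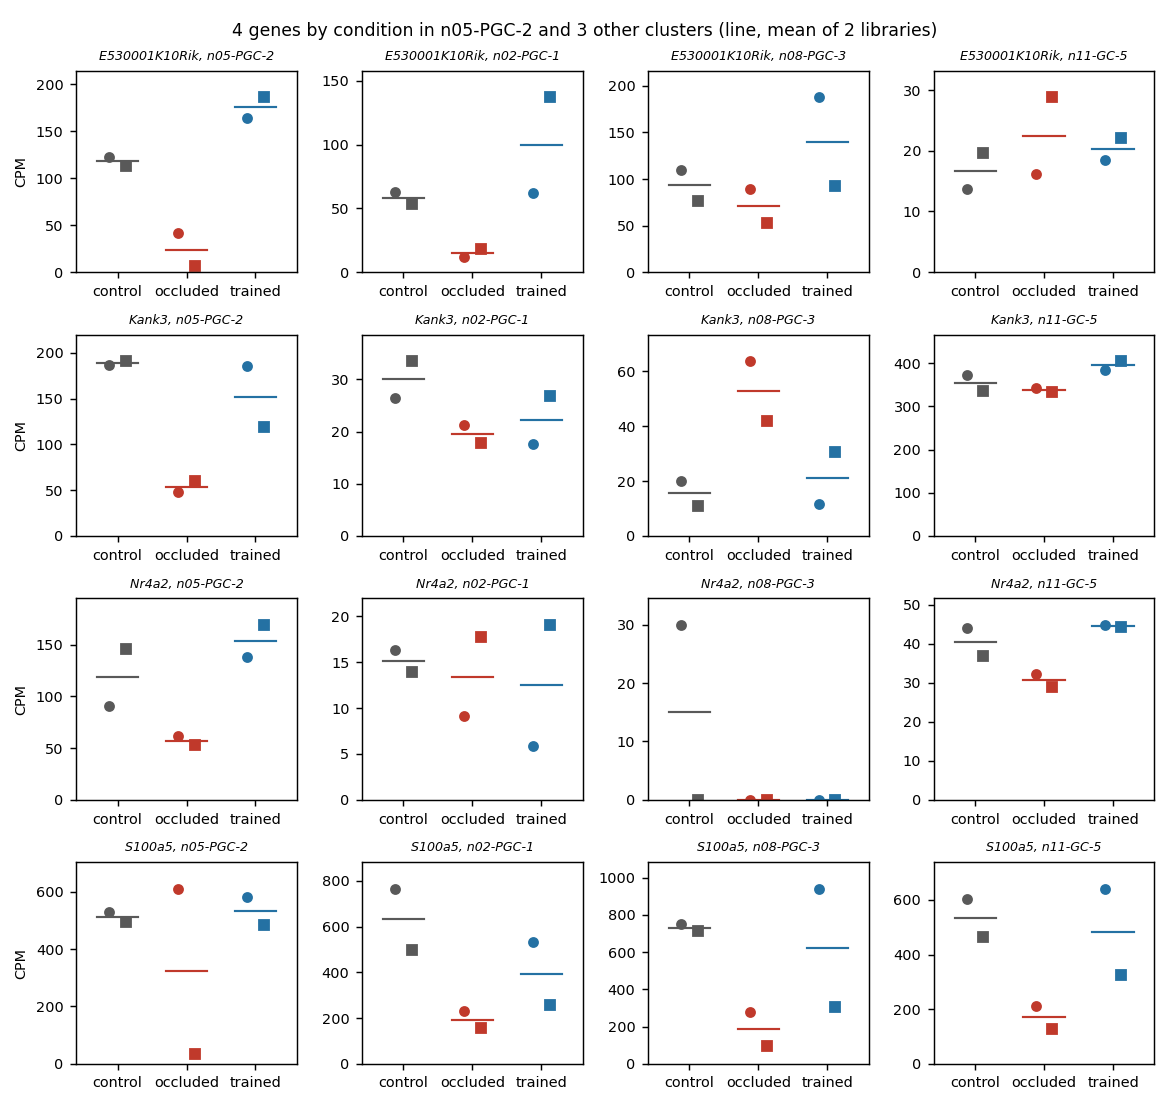
Level in CPM of E530001K10Rik, Kank3, Nr4a2 and S100a5 by condition in n05-PGC-2, n02-PGC-1, n08-PGC-3 and n11-GC-5, 1 point a library. E530001K10Rik is low in the occluded libraries of n05-PGC-2 and n02-PGC-1, Kank3 in those of n05-PGC-2 and not of n11-GC-5, and S100a5 in those of n02-PGC-1, n08-PGC-3 and n11-GC-5.

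The N16 cells alone, a set taken after the split was seen, gave 1, 3 and 4 calls among 2705 genes in the 3 comparisons (0.037%, 0.111% and 0.148%). S100a5, a calcium-binding protein gene known from olfactory sensory neurons, was at 357 and 309 CPM in control, 93.1 and 34.5 in occluded and 309 and 405 in trained (occluded against control -2.48, SE 0.39, edgeR adjusted p = 0.000601). The sensory neurons n01-OSNs themselves held 28031 and 25567, 15027 and 10026, and 19259 and 25037 CPM, and the immature neurons n04-Immature 717 and 671, 233 and 127, and 764 and 296. S100a5 thus moved with the occlusion in cells of other kinds in the same libraries, and the part of free RNA in it was not tested. Over all n05-PGC-2 cells occluded replicate 1 stood at 611 CPM, above both controls at 529 and 495.

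The calls of trained against control in the N16 cells included Ptn and Fabp7, genes known from glia. Fabp7 was at 213 and 182 CPM in control and 213 and 2223 in trained, so 1 trained library was high (2.54, SE 0.49, edgeR adjusted p = 0.0127). Ptn was at 349 and 332 CPM in control and 633 and 1864 in trained (1.84, SE 0.30, edgeR adjusted p = 0.00113). The markers of olfactory ensheathing cells, which include such genes, summed over all n05-PGC-2 cells to 731 CPM in trained replicate 1 and 3084 in replicate 2, 1005 and 1705 in control and 2439 and 569 in occluded. Their part was not tested. Trained against occluded called S100a5, E530001K10Rik, mt-Co1 and Calb2. mt-Co1, of the mitochondrial genome, was at 5864 and 5804 CPM in occluded and 8312 and 8880 in trained (0.60, SE 0.10, edgeR adjusted p = 0.00162). Calb2 was at 663 and 77.6 against 41.3 and 11.6 (-3.43, SE 0.72, edgeR adjusted p = 0.0219), with 1 occluded library high. The N12 cells alone called 0 of 735 genes in each comparison (0%).

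Whether the cells responded otherwise than other periglomerular cells was tested as a difference of the effects, with the library as a block. Against n08-PGC-3, 0 of 3154 genes were called in each comparison (0%, with 75, 95 and 99 at an unadjusted p under 0.05), and simulated 4-fold differences were recovered in 39% of cases. The simulated n08-PGC-3 had the gene levels and spread of n05-PGC-2, scaled to its own library totals. The 39% thus does not hold for genes that are scarce in the real n08-PGC-3, such as Th with 4 UMIs. Against n02-PGC-1, 1 of 5053 was called in occluded against control (0.0198%) and 0 in the others. That gene was Mt1, at 3641 and 4473 CPM in control and 2542 and 3012 in occluded of n05-PGC-2, and at 709 and 699 and 818 and 1019 of n02-PGC-1. It was thus lower in both occluded libraries of the first and higher in both of the second, and the difference of the log2 fold changes was -0.91 (SE 0.20, edgeR adjusted p = 0.0290). The call was lost without the library block (edgeR adjusted p = 0.693), without the filter on low counts (0.474) and without either control or either trained library. In n08-PGC-3 Mt1 was at 1690 and 1461 CPM in control and 1326 and 1406 in occluded, also lower in both, and n05-PGC-2 differed from it by -0.35 (SE 0.27, edgeR adjusted p = 1). Within n05-PGC-2 and n02-PGC-1 Mt1 did not pass the test, at -0.56 (edgeR adjusted p = 0.998) and 0.36 (edgeR adjusted p = 0.844).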

How the data were processed

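Counts are UMIs per gene and cell that the authors made with Cell Ranger 2.0.0 on mm10 and deposited as 1 raw table. Clusters, and the mitochondrial fraction of UMIs in each cell, come from the authors' deposited annotations (Seurat 2.2.1, doublets removed and indistinct clusters merged by them). No further cells were removed. UMIs were summed over the cells of each library and cluster. Levels are CPM of those sums, as mean ± SD over 6 libraries, and ratios used CPM + 1. Conditions were compared with edgeR 4.0.16 in R 4.3.3 (TMM, filterByExpr, quasi-likelihood, Benjamini-Hochberg, threshold 0.05, two-sided) on all 6 libraries. Effects were compared between clusters with a term per library. DESeq2 1.42.0, other filters, other cell sets and left-out libraries were alternatives. Python 3.11.15 and scipy 1.17.1 did the rest. Detection after thinning to 500 UMIs is the exact expectation. The edgeR fits were tested on simulated data.

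The cells, gene lists and tests were chosen with earlier results of these data known. Named genes were the 25 leading and 10 lowest genes by ratio, genes past the threshold, the 10 largest of each split, and listed members. Genes in the report outside this rule (Gpcpd1, Kank3, Vgf) were chosen after their values were seen. Same-numbered libraries are known to share sex, and whether they share more is not given. The deviations of the replicate 1 libraries from their group means correlated at 0.136, 0.126 and 0.088 between pairs of groups, over 3613 genes. Those of replicate 2 are the same with the sign turned and add nothing. The deposited log-normalised table was not used. A few genes are not reported here.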

Additional observations from a re-analysis of the deposited data

Results flagged for a closer look

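The response of Mt1 to naris occlusion differed between n05-PGC-2 and n02-PGC-1 by -0.91 on the log2 scale (SE 0.20, edgeR adjusted p = 0.0290), by a test of the difference itself. Both occluded libraries were below both controls in the first cluster and above them in the second. In n08-PGC-3 both occluded libraries were also below both controls, and the difference of n05-PGC-2 from it was -0.35 (edgeR adjusted p = 1). The call was lost without the library as a block (edgeR adjusted p = 0.693), without the filter on low counts (0.474) and without control replicate 1, control replicate 2, trained replicate 1 or trained replicate 2, and the difference stayed between -1.07 and -0.73 in every alternative run.

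Th was also found outside the clusters used. All 29680 annotated cells outside the neuronal annotation held 545 Th UMIs (18.5% of those in the table), with 3 or more in 7 cells. Among them, the 755 cells of neuron clusters of the whole bulb that the neuronal annotation left out held 91 Th UMIs, with 3 or more in 5 cells. The 1123 barcodes with no annotation held 45 Th UMIs, with 3 or more in 1 cell. The 377 cells of n05-PGC-2 held 1254, with 3 or more in 138.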

How the results depend on the processing

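With 2 libraries a group and sums of 118023 to 188676 UMIs, only large changes of well-counted genes could pass. Counts of called genes in n05-PGC-2 moved as follows. Trained against occluded went from 1 to 0 with DESeq2, with at least 20 UMIs in 2 libraries, with only the 4 libraries compared and in the N12 cells, and to 4 in the N16 cells. Occluded against control went from 0 to 2 without the filter on low counts and to 1 in the N16 cells, and trained against control from 0 to 3 in the N16 cells. The N16 and N12 sets were chosen after seeing the data. Leaving out 1 library at a time, which leaves its group with 1 sex and 1 library assumed to vary like the others, gave 0 to 17 calls in occluded against control, 0 to 3 in trained against control and 2 to 23 in trained against occluded. Xist, which follows sex, was among the calls and turned in trained against control, higher without trained replicate 1 and lower without trained replicate 2. The highest counts, 17 and 23, came without occluded replicate 1, and 8 and 14 came without occluded replicate 2. With the replicate number as a block, 0, 0 and 1 genes were called, the 1 being E530001K10Rik (2.83, edgeR adjusted p = 0.0149), and the block changed no call. For E530001K10Rik the call was kept in 11 of 15 alternatives, with values from 2.03 to 4.56. Against n02-PGC-1 the 1 call in occluded against control went to 0 without the library block and without the filter, and left-out libraries gave 0 to 4, 0 to 2 and 0 to 6 calls in the 3 comparisons. Against n08-PGC-3 they gave 0 to 6 in trained against control and 0 to 5 in trained against occluded. The change in cell number, trained against occluded, was 0.012 per annotated cell, 0.23 with TMM factors, 0.11 for cells with at least 1000 UMIs and -0.31 to 0.33 with 1 library left out. The 48 leading genes became 31 with the mean CPM of single cells, 82 in the 2 control libraries, 75 in the N16 cells and 25 in the N12 cells, and 54 to 61 with 1 library left out. Causes of these shifts were not tested.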
